A study of Homo sapiens with 24 samples.

Results

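The genes described here are the zinc finger genes of human chromosome 19 whose symbol is ZNF followed by a number. They were found by symbol in the 4 deposited tables, placed on chromosome 19 with a GRCh37 annotation, the build of the reads' mapping (hg19), and kept where the mean normalised read count of a table was at least 10. In all, 213 such genes of 15168 genes passed in at least 1 table, and 150 passed in all 4. Each table sets an aneuploid human cell line against its parental line, with mRNA sequenced in 3 libraries per line and 24 libraries in all. HCT116 5/4 carries 4 copies of chromosome 5 and was compared with HCT116, a colorectal cancer line. HCT116* 8/3 c7 is clone 7 with 3 copies of chromosome 8 and was compared with HCT116 H2B-GFP, and the asterisk marks that both lines express a histone fused to a fluorescent protein. RPE1 5/3 12/3 has 3 copies of chromosomes 5 and 12, the second of which was gained spontaneously, and was compared with RPE1 hTERT, an immortalised line derived from retinal pigment epithelium. RPE1* 21/3 has 3 copies of chromosome 21 and was compared with RPE1 hTERT H2B-GFP. HCT116 5/4 was received from another laboratory, and the other aneuploid lines were made by chromosome transfer with microcells. None of the lines is labelled as having gained chromosome 19. Each set of gained chromosomes is represented by 1 line, so that its effect cannot be told apart from that of the line. Where 4 values are given below, they stand in the order in which the lines are listed here. The labels do not say whether the libraries of a line came from separate cultures, so that p-values measure the spread between these libraries only.

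Most of these genes encode KRAB zinc finger proteins, in which an array of C2H2 fingers reads a DNA sequence and the KRAB domain binds TRIM28 (KAP1). TRIM28 in turn brings in SETDB1, the H3K9 methyltransferase, and HP1 proteins, and the target, often a transposable element, is silenced. The family grew by tandem duplication, and chromosome 19 holds its main clusters.

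The 265 ZNF genes that the annotation places on chromosome 19, pseudogenes included, fell into 8 clusters of at least 5 genes when a gap of over 1 Mb between starts was taken to end a cluster. Cluster 1 lies at 7.1 to 9.9 Mb, cluster 2 at 11.6 to 12.8 Mb, cluster 3 at 19.8 to 24.3 Mb, cluster 4 at 35.0 to 35.5 Mb, cluster 5 at 36.7 to 38.3 Mb, cluster 6 at 44 to 45.6 Mb, cluster 7 at 52.1 to 54.1 Mb and cluster 8 at 56.0 to 59.0 Mb of GRCh37. They held 13, 22, 22, 5, 24, 23, 35 and 56 of the genes studied, and 13 genes lay outside them. A pattern of the KRAB A box was found in the translated canonical transcript of 172 of the 206 members with a translated protein (83.5%), against 36.5% of the ZNF genes of other chromosomes. A protein without this pattern may still carry a KRAB domain, so that these are shares of the pattern only. The median number of C2H2 fingers was 12, against 9 on other chromosomes.

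Promoters are shown for the genes on which the comparisons below turn. ZNF93, ZNF737 and ZNF681 stand for cluster 3, ZNF585A and ZNF585B are the neighbouring duplicates of cluster 5 with the largest falls in HCT116 5/4, and ZNF813 of cluster 7 is shown as a promoter rich in CpG. The sequences are those of RefSeq (GRCh38.p14), from 250 bases before to 50 bases after the start of the gene, 5′ to 3′ on the strand of the gene, with CpG dinucleotides in capitals. On chromosome 19 they lie at chr19:19900696-19900995 (plus strand, ZNF93), chr19:20565732-20566031 (minus strand, ZNF737), chr19:23758842-23759141 (minus strand, ZNF681), chr19:37172646-37172945 (minus strand, ZNF585A), chr19:37210487-37210786 (minus strand, ZNF585B) and chr19:53467483-53467782 (plus strand, ZNF813).
ZNF93: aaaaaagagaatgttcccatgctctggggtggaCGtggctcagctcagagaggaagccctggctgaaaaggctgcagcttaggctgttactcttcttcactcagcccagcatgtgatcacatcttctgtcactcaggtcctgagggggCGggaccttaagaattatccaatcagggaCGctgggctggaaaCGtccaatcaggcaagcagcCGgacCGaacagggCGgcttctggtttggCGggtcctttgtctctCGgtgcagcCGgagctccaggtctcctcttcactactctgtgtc
ZNF737: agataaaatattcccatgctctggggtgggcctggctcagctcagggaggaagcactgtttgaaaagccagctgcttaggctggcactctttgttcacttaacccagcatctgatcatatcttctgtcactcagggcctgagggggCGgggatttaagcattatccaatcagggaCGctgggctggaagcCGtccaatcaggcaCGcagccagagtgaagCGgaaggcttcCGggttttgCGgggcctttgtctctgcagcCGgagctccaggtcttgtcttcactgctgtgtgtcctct
ZNF681: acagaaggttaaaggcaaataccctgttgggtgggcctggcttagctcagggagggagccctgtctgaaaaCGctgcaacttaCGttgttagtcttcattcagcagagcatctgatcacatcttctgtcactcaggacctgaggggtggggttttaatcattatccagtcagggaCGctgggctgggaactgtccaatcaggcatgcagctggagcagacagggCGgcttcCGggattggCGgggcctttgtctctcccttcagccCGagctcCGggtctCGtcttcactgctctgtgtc
ZNF585A: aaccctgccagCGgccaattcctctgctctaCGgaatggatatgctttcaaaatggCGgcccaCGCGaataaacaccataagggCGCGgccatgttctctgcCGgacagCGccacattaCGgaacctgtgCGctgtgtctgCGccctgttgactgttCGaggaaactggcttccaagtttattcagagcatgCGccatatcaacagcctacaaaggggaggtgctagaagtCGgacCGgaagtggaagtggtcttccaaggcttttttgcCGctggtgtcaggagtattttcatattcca
ZNF585B: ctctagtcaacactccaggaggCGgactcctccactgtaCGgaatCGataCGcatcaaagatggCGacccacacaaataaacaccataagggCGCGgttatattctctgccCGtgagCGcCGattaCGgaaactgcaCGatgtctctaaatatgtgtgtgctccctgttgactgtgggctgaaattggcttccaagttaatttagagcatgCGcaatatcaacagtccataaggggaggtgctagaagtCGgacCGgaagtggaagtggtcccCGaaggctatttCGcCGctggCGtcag
ZNF813: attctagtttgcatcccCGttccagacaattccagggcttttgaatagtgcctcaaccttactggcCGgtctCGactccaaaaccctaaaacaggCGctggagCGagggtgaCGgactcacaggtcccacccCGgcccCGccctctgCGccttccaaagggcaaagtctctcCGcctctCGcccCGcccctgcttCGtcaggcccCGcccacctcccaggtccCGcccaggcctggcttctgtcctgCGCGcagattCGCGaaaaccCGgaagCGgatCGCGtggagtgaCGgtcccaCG

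The promoters of cluster 3 were alike and poor in CpG. Over the 171 pairs among its 19 promoters in RefSeq the median identity in a global alignment was 77.7%, against 53.0% over 14690 pairs of members from different clusters. ZNF93 and ZNF737 shared 84.3% and ZNF93 and ZNF681 81.3% of their letters. The median number of CpG was 10 in cluster 3, against 21 over the 186 members with a promoter and 14 over all 27305 RefSeq promoters. ZNF93, ZNF737 and ZNF681 held 10, 8 and 9, and ZNF813 held 25. The letters CCAAT, searched on both strands, stood in each of the 19 promoters of cluster 3, in 52.2% of the members' promoters and in 35.7% of all promoters. They were also in 18 of 20 promoters of cluster 2 (90%) and 33 of 50 of cluster 8 (66%). The stretch of 12 letters most common in cluster 3, GTCCAATCAGGC, was in 13 of its 19 promoters, in 1 of the 167 promoters of the other members and in 30 of all 27305 promoters. ZNF585A and ZNF585B had 17 and 19 CpG and an identity of 76.7%.

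The tables hold 1 mean level per gene, over the 6 libraries of a comparison, and no values of single libraries, so that values per library cannot be given and the spread between replicates enters only through the standard errors of the authors' fits. The limit of 10 was passed by 159 members in HCT116 5/4, by 156 in HCT116* 8/3 c7, by 207 in RPE1 5/3 12/3 and by 204 in RPE1* 21/3. A further 8, 9, 9 and 14 were listed below it. The median mean of the members was 163 and 166 normalised reads in the HCT116 tables and 125 and 101 in the RPE1 tables, against 561, 578, 580 and 493 for all genes. Per kilobase of transcript, ZNF146, a protein of fingers with no KRAB domain, had the highest level of the members in both HCT116 tables, with 1087 and 1224 normalised reads per kb, and ZNF580, with few fingers, in both RPE1 tables, with 828 and 642. The medians of the members per kb were 48.3, 44.1, 32.9 and 26.8. Just inside the limit lay ZNF426 in HCT116 5/4 (10.4), ZNF709 in HCT116* 8/3 c7 (11.6), ZNF763 in RPE1 5/3 12/3 (10.2) and ZNF43 in RPE1* 21/3 (10.5), and just outside ZNF772 (9.70), ZNF233 (9.33), ZNF135 (9.33) and ZNF682 (9.86).

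RPE1 tables listed more of the members than HCT116 tables. In all, 49 members passed the limit in both RPE1 tables and in neither HCT116 table (23.0% of 213), and 4 showed the opposite pattern, ZNF833P, ZNF724P, ZNF296 and ZNF114. Of all 15168 genes, 771 showed the first pattern (5.08%) and 1350 the opposite pattern (8.90%). Among ZNF genes of other chromosomes the first pattern held for 18 of 254 (7.09%), and among other genes of chromosome 19 for 18 of 834 (2.16%), where the opposite pattern held for 122 (14.6%). Cluster 5 had the highest share of the clusters, with 11 of 24 members in the RPE1 tables only (45.8%), followed by cluster 3 with 8 of 22 (36.4%) and cluster 8 with 14 of 56 (25.0%), and clusters 1 and 4 had none. The levels of the 49 genes in RPE1 5/3 12/3 ran from 12.9 (ZNF681) to 559 (ZNF260), with a median of 80.3 and 18 genes at 100 or more. ZNF260 of cluster 5, ZNF772 and ZNF667 of cluster 8 and ZNF529 of cluster 5 had means of 559, 295, 246 and 254 in RPE1 5/3 12/3, and of these genes HCT116 5/4 and HCT116* 8/3 c7 list only ZNF772, at 9.70 and 4.93. ZNF382, ZNF154 and ZNF671, whose promoters are known to be methylated in tumours, were among the 49, with 80.3, 52.3 and 127 in RPE1 5/3 12/3. ZNF677, another gene of this kind, had no mean of at least 10 in any table. A gene can be missing from a table for a low mean or for an outlying count, which was not tested, and each table was normalised on its own. Among genes in all 4 tables, ZNF419 stood at 26.6 and 19.7 in the HCT116 tables against 214 and 255 in the RPE1 tables, and ZNF320 at 591 and 499 against 96.5 and 142.

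**Figure D1:**
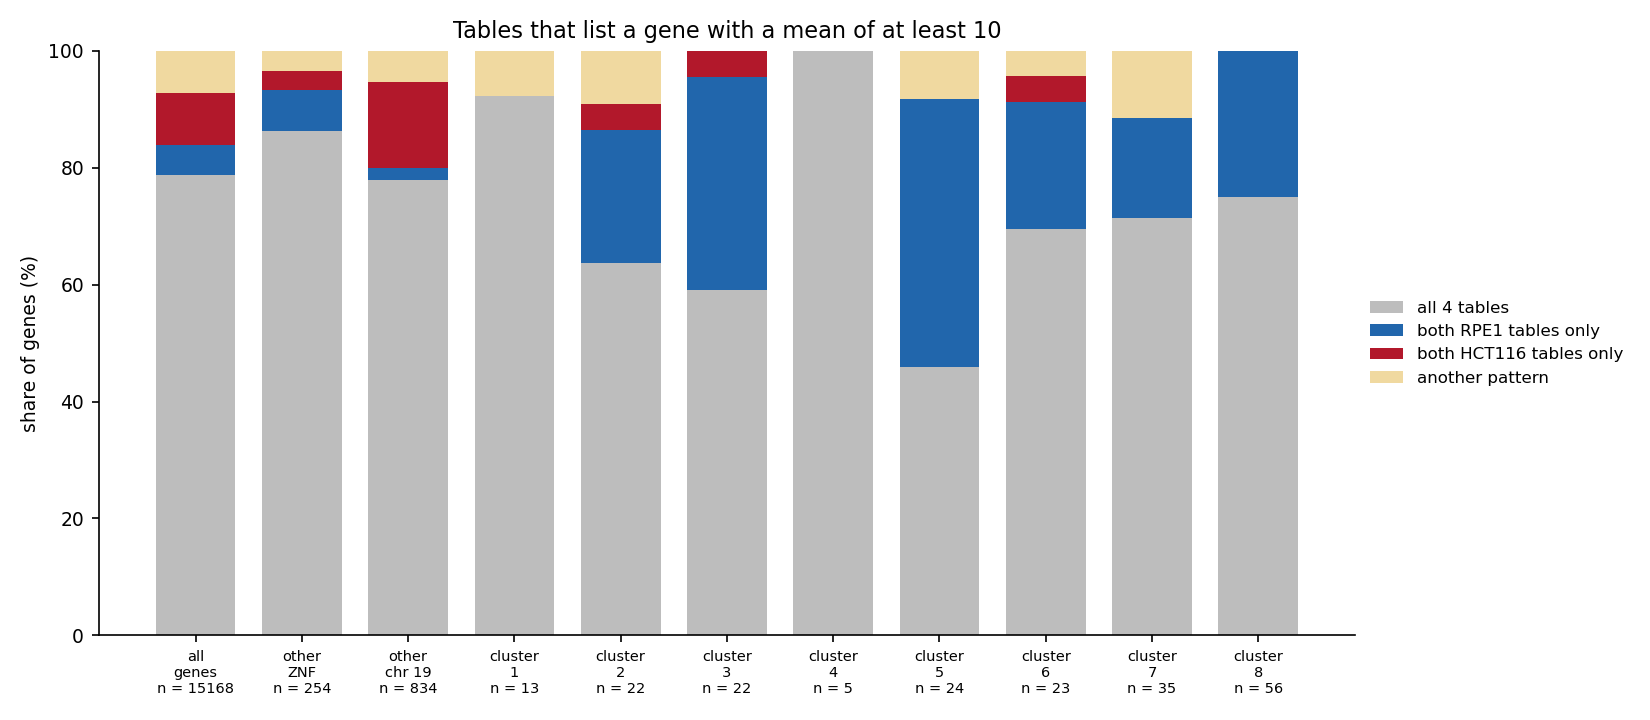
Share of genes (%) by the tables that list them with a mean of at least 10, for all genes, ZNF genes of other chromosomes, other genes of chromosome 19 and the members of clusters 1 to 8, with the number of genes under each bar. The blue share, listed in both RPE1 tables and neither HCT116 table, is 45.8% in cluster 5 and 36.4% in cluster 3. It is 7.09% of the ZNF genes of other chromosomes and 5.08% of all genes.

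A gene was called at an adjusted p-value under 0.05 (Benjamini-Hochberg, from the authors' DESeq2 fit) and an absolute log2 fold change above 0.6. In RPE1 5/3 12/3, 45 of 207 members were called, 44 lower (21.26%) and 1 higher (0.483%). Of all genes in that comparison, 16.6% were called, 8.13% higher and 8.47% lower, and of the ZNF genes of other chromosomes 18 of 245 were lower (7.35%) and 8 higher. Other genes of chromosome 19 lay between, with 74 of 684 lower (10.8%), and those inside the spans of the clusters came to 14 of 70 lower (20.0%) and 3 higher (4.29%). These other genes can include zinc finger genes under another symbol, such as HKR1 (now ZNF875) and ZFP112 (now ZNF112). The median log2 fold change of the members was -0.15, with 143 of 207 below 0, against 0.01 for the ZNF genes of other chromosomes. In HCT116 5/4, 22 of 159 members were called (13.8%), 14 lower and 8 higher, against 20.6% of all genes, 10.8% higher and 9.83% lower, and against 42 of 232 ZNF genes of other chromosomes (18.1%). In RPE1* 21/3, 14 of 204 were called (6.86%), 9 lower and 5 higher, against 3.31% of all genes, 1.66% higher and 1.65% lower, and 9 of 242 of the other ZNF genes (3.72%). In HCT116* 8/3 c7 1 of 156 was called, lower, against 1.80% of all genes, 0.945% higher and 0.858% lower, and 3 of 230 of the other ZNF genes. At an unadjusted p under 0.05 there were 38, 3, 51 and 28 members in the 4 lines, which is 23.9%, 1.92%, 24.6% and 13.7% of them, against 31.1%, 8.81%, 29.3% and 9.59% of all genes. The members' medians in HCT116 5/4, HCT116* 8/3 c7 and RPE1* 21/3 were -0.04, 0.03 and 0.07. Such shares were not tested against each other, since genes of a cluster are not independent.

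**Figure D2:**
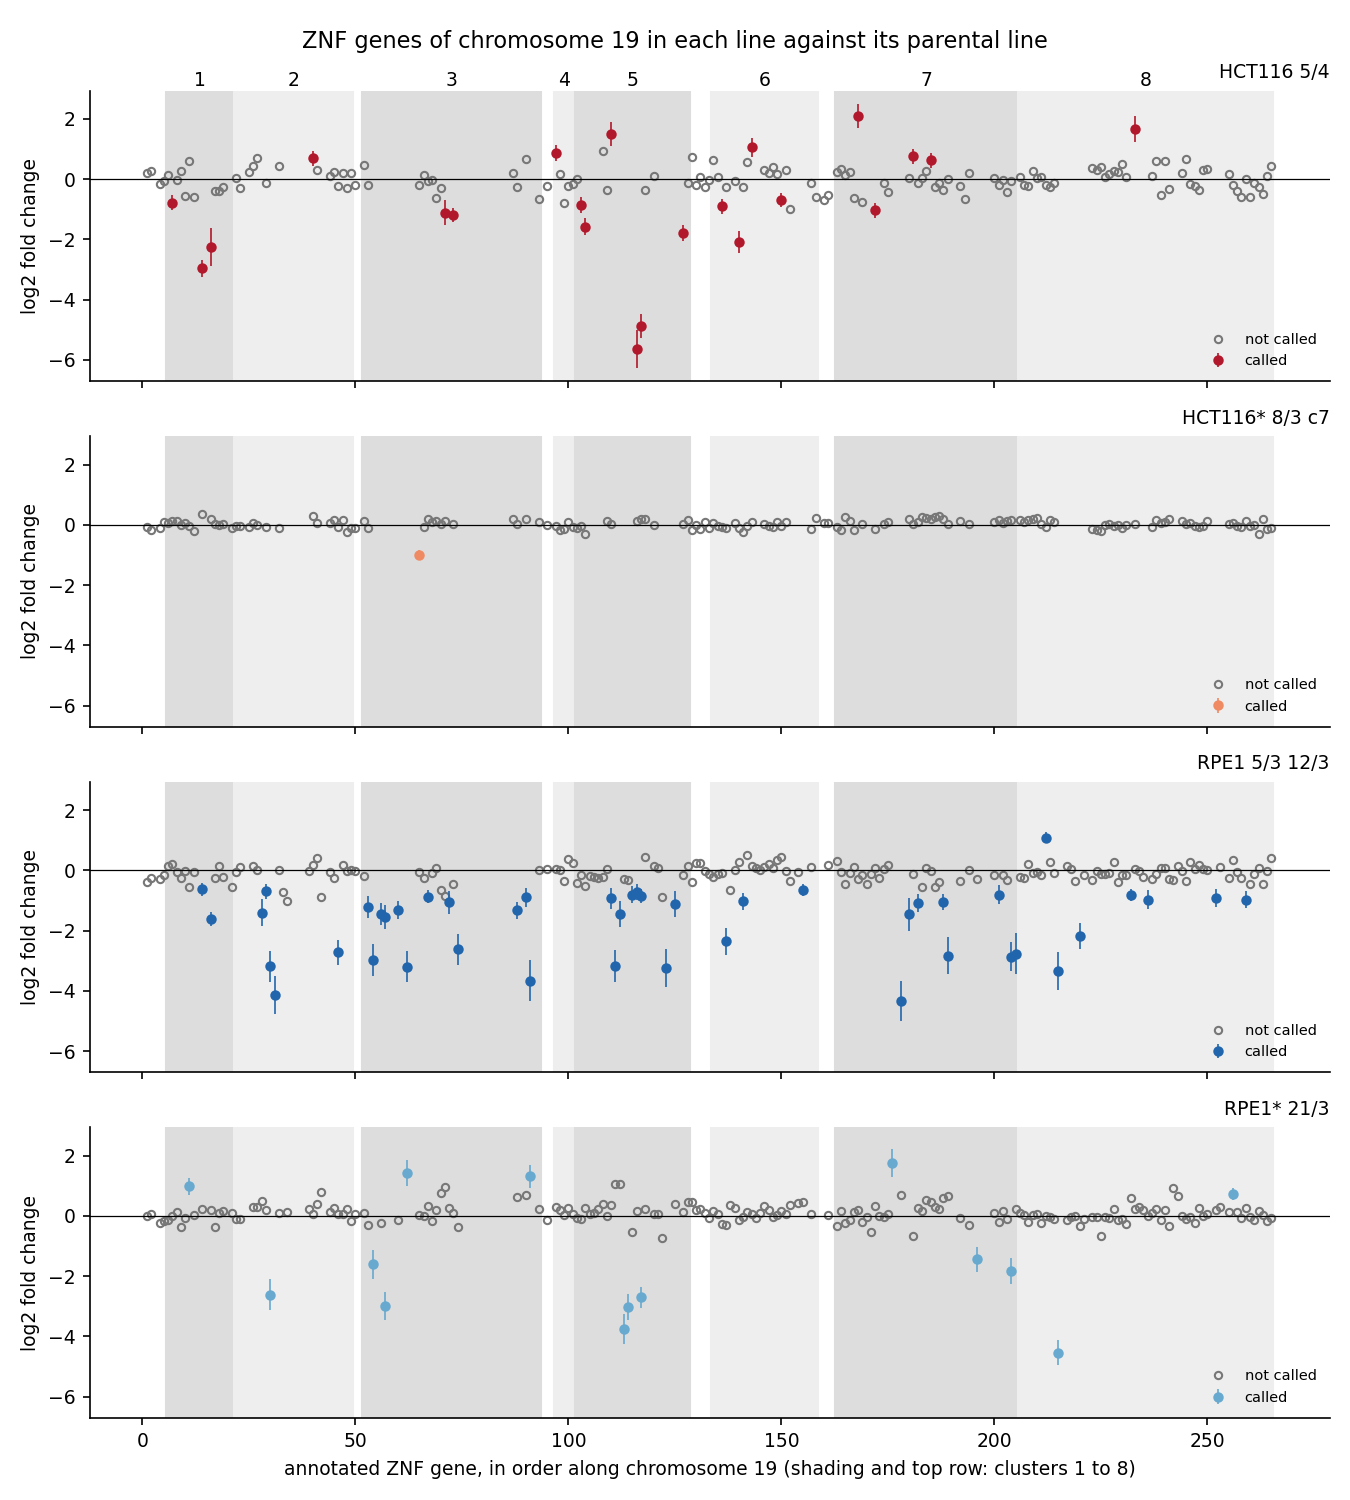
Log2 fold change of each member against the parental line (vertical axes) by its place in the order of annotated ZNF genes along chromosome 19 (horizontal axis), one panel per line, with clusters 1 to 8 shaded; filled points with standard errors are called, open points are not. In RPE1 5/3 12/3 44 of the 45 called members lie below 0, whereas HCT116* 8/3 c7 has 1 called member.

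The level of the genes moved with these counts. In RPE1 5/3 12/3, 31 of the 85 members with a mean of 10 to 100 were lower (36.5%), against 14.4% of all genes and 18.97% of the other ZNF genes of that level. Of the 122 members at 100 or more, 13 were lower (10.7%), against 7.04% and 3.74%. The mean is taken over both lines of a comparison, so that a fall itself lowers it and these classes are a description. From the mean and the fold change, the level of RPE1 5/3 12/3 itself came to less than 10 in 11 of the 44 members that were lower (25%), against 156 of the 1124 genes lower in all (13.9%). These genes passed the limit of 10 through the parental line. In RPE1* 21/3 the same held for 6 of the 9 lower members, against 68 of 216 genes. Of the members of RPE1* 21/3 with a mean of 10 to 100, 13 of 97 were called (13.4%), against 203 of 2646 genes (7.67%), and the remaining call was at a higher mean. With a mean of at least 50, 29 of 175 members of RPE1 5/3 12/3 were called (16.6%), against 15.5% of all genes, and 28 of them were lower (16%), against 7.60%. In RPE1* 21/3 4 of 162 were called at that level (2.47%), against 2.57% of all genes. Of the 44 falls in RPE1 5/3 12/3, 42 were among the 197 members that share at most 5% of their 100-base windows with a gene elsewhere, and 28 among the 123 members that overlap no other gene with a symbol.

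In RPE1 5/3 12/3 the falls were spread unevenly over the clusters. Cluster 3 had 12 of 21 members lower (57.1%) and a median of -0.90, and without it 32 of 186 members were lower (17.2%). Among the 12 in cluster 3, the level of RPE1 5/3 12/3 itself came to less than 10 for ZNF506, ZNF737, ZNF681 and ZNF43. These genes passed the limit through the parental line. At a mean of 10 to 100, 9 of 13 members of cluster 3 were lower (median -1.32), against 22 of 72 members elsewhere. At 100 or more, 3 of 8 were lower (median -0.35), against 10 of 114. In cluster 5, 8 of 24 were lower (median -0.31), in cluster 7, 8 of 33 (median -0.30), in cluster 2, 5 of 21 (median -0.06), in cluster 1, 2 of 13 (median -0.23), in cluster 6, 3 of 22 (median 0.02) and in cluster 8, 6 of 56 with 1 higher (median -0.10). Cluster 4 and the 12 members outside the clusters had no call. Along cluster 3, 6 adjacent members, ZNF14, ZNF506, ZNF253, ZNF93, ZNF486 and ZNF737, were all lower, with log2 fold changes from -3.19 to -1.22, and cluster 2 had a row of 4, ZNF491, ZNF440, ZNF439 and ZNF69. The members of cluster 3 that were not called included ZNF708 (0.06 ± 0.28 (SE)), ZNF85 (-0.04 ± 0.33) and ZNF431 (-0.08 ± 0.28), which lie between those that fell, and ZNF254 (0.02 ± 0.28) at the end of the cluster. In RPE1* 21/3 cluster 3 did not show this, with a median of 0.09 (2 of 21 lower and 2 higher). Its medians in the HCT116 lines were -0.19 in HCT116 5/4 (2 of 14 lower) and 0.09 in HCT116* 8/3 c7 (1 of 14 lower). These leave out the 8 members that passed the limit only in RPE1, among them ZNF506, ZNF253, ZNF93, ZNF486 and ZNF737. For those 8 a change in the HCT116 lines cannot be read.

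**Figure D3:**
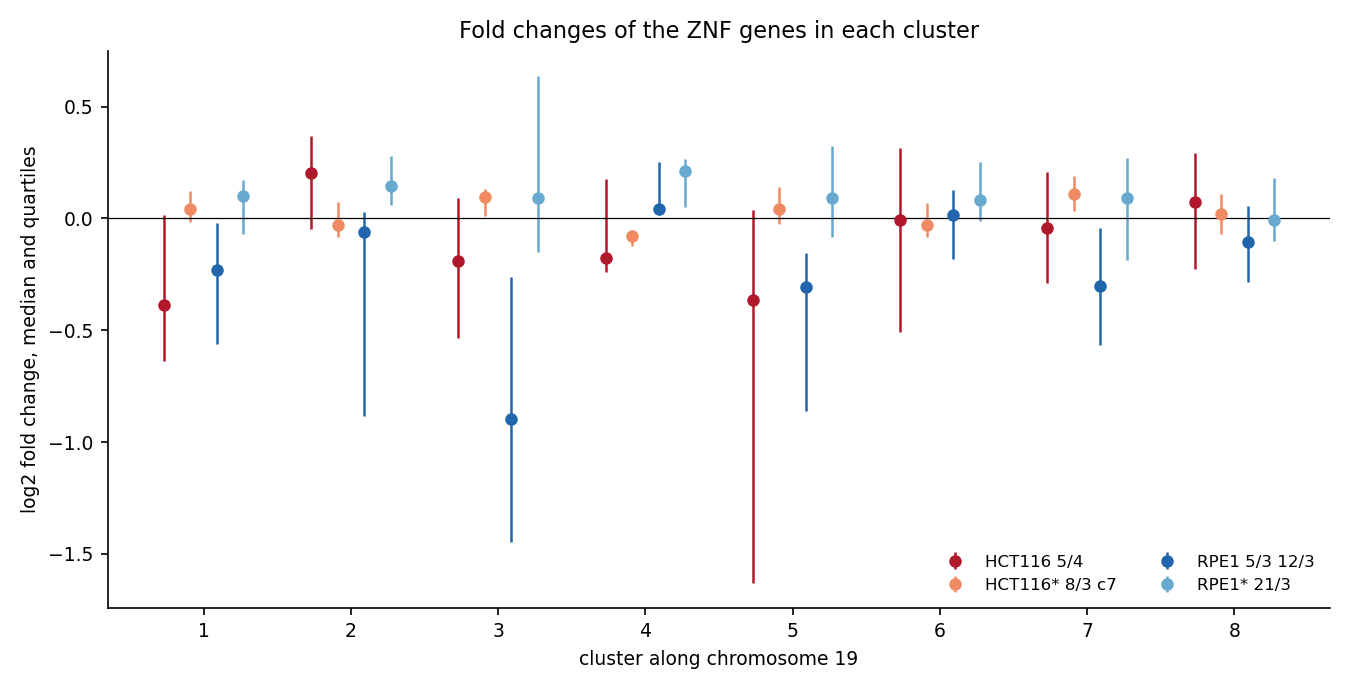
Median log2 fold change of the members of each cluster (points) with the quartiles over genes (bars), by cluster along chromosome 19 and by line. Cluster 3 in RPE1 5/3 12/3 has the lowest median, -0.90, and the quartiles of cluster 5 in HCT116 5/4 reach down to -1.63.

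Among the members of RPE1 5/3 12/3 with a mean of at least 50, ZNF542, a pseudogene of cluster 8 (now ZNF542P), fell most, with a mean of 106 and a log2 fold change of -3.33 ± 0.64 (SE, adjusted p = 3.45e-06). ZNF320 and ZNF331 of cluster 7 followed, at -2.83 ± 0.62 (adjusted p = 7.56e-05) and -2.77 ± 0.68 (adjusted p = 0.000583). ZNF331 is an imprinted gene. The standard errors of these 3 genes were larger than those of over 98% of genes of similar mean, whose medians were 0.27, 0.28 and 0.28. ZNF470 of cluster 8 changed by -2.18 ± 0.42, ZNF426 of cluster 1 by -1.62 ± 0.24 and ZNF93 of cluster 3 by -1.53 ± 0.40. ZNF93, a repressor of LINE-1 elements, and ZNF91, a repressor of SVA elements at -1.33 ± 0.29 (adjusted p = 5.77e-05, mean 274), belong to the same cluster. At means under 50, falls of over 3 on the log2 scale included those of ZNF528 (-4.33 ± 0.66, mean 17.4), ZNF69 (-4.13 ± 0.64, mean 18.01), ZNF681 (-3.66 ± 0.67, mean 12.9) and ZNF793 (-3.25 ± 0.63, mean 13.7). The single rise was ZNF581 of cluster 8, at 1.09 ± 0.19 (adjusted p = 1.17e-07, mean 535), which overlaps ZNF580 and CCDC106 on the same strand. ZNF675, which had the largest median size over the 4 lines in cluster 3, fell by 0.90 on the log2 scale in this line (adjusted p = 0.0215) and was not called in the other 3, at 0.67 ± 0.28 in HCT116 5/4, 0.19 ± 0.17 in HCT116* 8/3 c7 and 0.71 ± 0.29 in RPE1* 21/3.

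In HCT116 5/4 the largest falls were in clusters 5 and 1. ZNF585B at GRCh37 chr19:37672481-37709055 had a mean of 108 and a log2 fold change of -4.87 ± 0.39 (adjusted p = 9.46e-34), and its neighbour ZNF585A at chr19:37597636-37663643 a mean of 39.1 and -5.63 ± 0.63 (adjusted p = 4.03e-17). Each encodes 21 fingers, and 10.6% and 7.60% of their 100-base windows occur in the other, so that reads of the pair may be split uncertainly. ZNF266 of cluster 1 changed by -2.96 ± 0.29 (mean 140, adjusted p = 7.03e-23), ZNF607 of cluster 5 by -1.79 ± 0.26, ZNF566 of cluster 5 by -1.57 ± 0.30, ZNF100 of cluster 3 by -1.18 ± 0.24 and ZNF616 of cluster 7 by -1.04 ± 0.26. ZNF146 of cluster 5, with a mean of 3639, changed by -0.86 ± 0.26 (adjusted p = 0.00674). Cluster 5 had 5 of 12 members lower and 1 higher with a median of -0.36, which was -0.86 among members at a mean of 50 or more. Cluster 1 had 3 of 12 lower and a median of -0.39. The rises among members with a mean of at least 50 were ZNF222 of cluster 6 (1.06 ± 0.32), ZNF302 of cluster 4 (0.87 ± 0.27), ZNF808 and ZNF611 of cluster 7 (0.76 ± 0.25 and 0.63 ± 0.24) and ZNF136 of cluster 2 (0.70 ± 0.25). At lower means ZNF615 of cluster 7 rose by 2.10 ± 0.41 (mean 35.4), ZNF419 of cluster 8 by 1.67 ± 0.44 (mean 26.6) and ZNF850 of cluster 5 by 1.501 ± 0.39 (mean 40.8). With an absolute log2 fold change above 1, 14 of the 159 members were called, and the share of all genes at that limit was not computed.

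In RPE1* 21/3 ZNF542 fell by 4.54 ± 0.42 (log2, adjusted p = 8.61e-25, mean 66.5) and ZNF585B changed by -2.70 ± 0.34 (adjusted p = 1.50e-12, mean 59.4). Rises among members with a mean of at least 50 were ZNF699 of cluster 1 (0.99 ± 0.28, adjusted p = 0.0177) and ZNF274 of cluster 8 (0.74 ± 0.20, adjusted p = 0.0124, mean 393). ZNF274 is known to bind the ZNF genes of chromosome 19 and to bring SETDB1 to them, and stood at -0.19 ± 0.27 in HCT116 5/4, 0.07 ± 0.16 in HCT116* 8/3 c7 and 0.35 ± 0.19 in RPE1 5/3 12/3, not called. ZNF829 and ZNF568 of cluster 5 fell together, by 3.74 ± 0.50 and 3.02 ± 0.42, at means of 24.2 and 37.4. ZNF610 of cluster 7 rose by 1.76 ± 0.48 at a mean of 23.5.

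In HCT116* 8/3 c7 the call was ZNF85 of cluster 3, at -0.9996 ± 0.17 (adjusted p = 2.34e-07, mean 18.2). The values of the other 155 members lay between -0.31 (ZNF566) and 0.35 (ZNF266). The standard errors of this table end in a ceiling at 0.18, with 250 genes within 0.1% of it, as a normal prior on the fold changes leaves, and 62 of the 156 members lay within 10% of it. A prior of that kind pulls fold changes of genes at low levels toward 0, so that the size of the values is not comparable with the other lines. RPE1* 21/3 has a ceiling at 0.56, with 150 genes within 0.1% of it and 2 members within 10% of it.

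Of the 213 members, 69 were called in at least 1 line (32.4%), 12 in 2 or more (5.63%) and none in all 4, against 31.0% and 6.34% of the 15168 genes tested in any line. ZNF585B was lower in 3 lines, which are HCT116 5/4, RPE1* 21/3 and RPE1 5/3 12/3 (-0.85 ± 0.23, adjusted p = 0.00225), and at 0.19 ± 0.15 in HCT116* 8/3 c7. Its duplicate ZNF585A was lower in HCT116 5/4 and in RPE1 5/3 12/3 (-0.72 ± 0.27, adjusted p = 0.0473) but stood at 0.15 ± 0.29 in RPE1* 21/3. ZNF266 and ZNF426, adjacent listed genes of cluster 1, were lower in RPE1 5/3 12/3 as well as in HCT116 5/4. In HCT116 5/4 ZNF426 was at -2.25 ± 0.62 with a mean of 10.4, and ZNF266 was at -0.63 ± 0.22 in RPE1 5/3 12/3. Both RPE1 lines had lower levels of ZNF439, ZNF506, ZNF93, ZNF813 and ZNF542 than their parental lines. ZNF439 of cluster 2 changed by -3.18 ± 0.51 and -2.61 ± 0.51 in these lines, RPE1 5/3 12/3 first, ZNF506 of cluster 3 by -2.98 ± 0.54 and -1.61 ± 0.48, and ZNF813 of cluster 7 by -2.86 ± 0.47 and -1.82 ± 0.42. ZNF93 changed by -2.98 ± 0.47 in RPE1* 21/3 (adjusted p = 3.04e-08, mean 21.6). Another 3 went in opposite directions. ZNF850 was lower in RPE1 5/3 12/3 (-0.93 ± 0.34) and higher in HCT116 5/4. ZNF737 of cluster 3 was at -3.19 ± 0.52 in RPE1 5/3 12/3 and 1.42 ± 0.42 in RPE1* 21/3, and ZNF681, also of cluster 3, at -3.66 ± 0.67 and 1.31 ± 0.37.

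**Figure D4:**
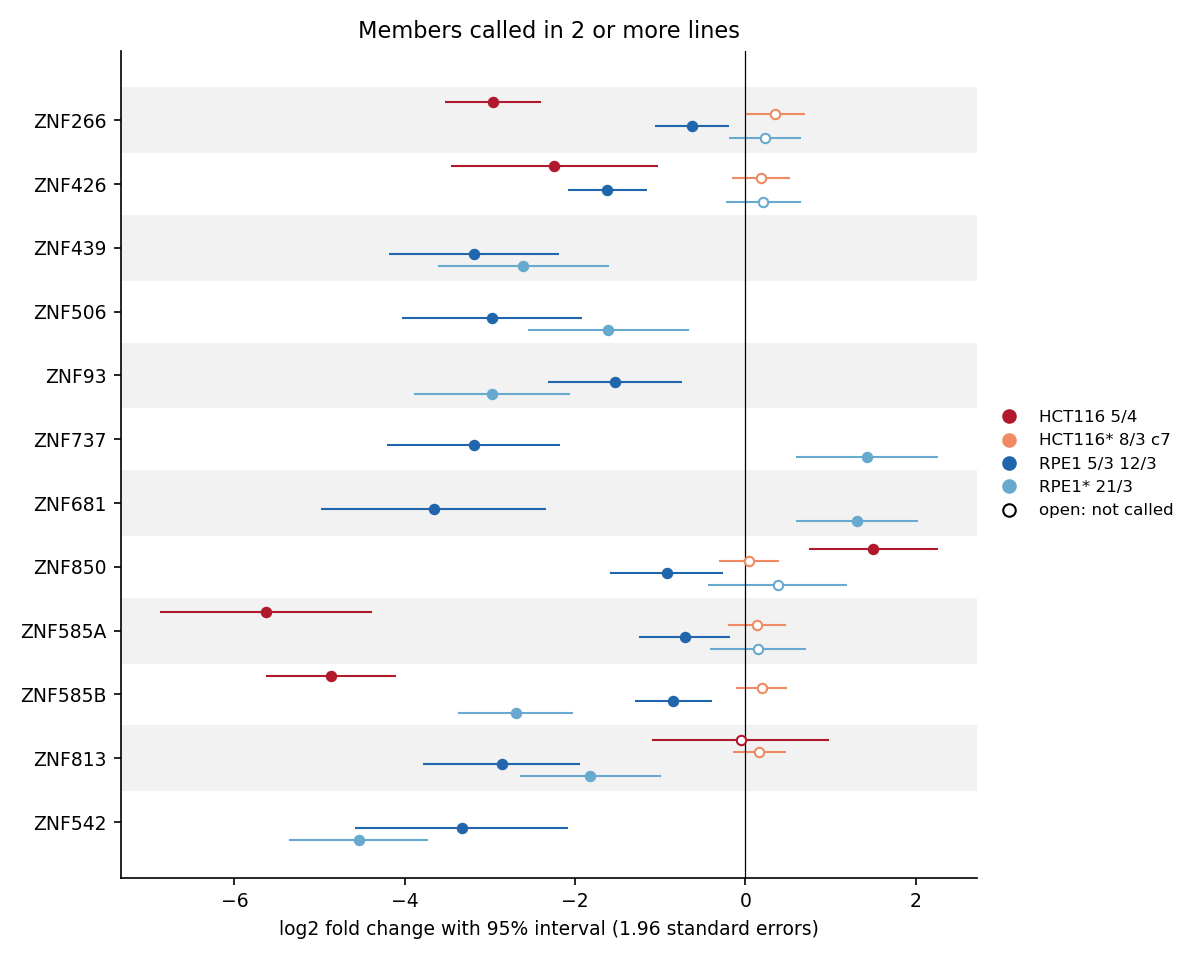
Log2 fold change (points) with 95% intervals for the 12 members called in 2 or more lines, from the start of chromosome 19 at the top, with filled points for called values and no point where the mean was below 10 or the gene was not listed. ZNF585B lies below 0 in 3 lines, and ZNF737 and ZNF681 lie on opposite sides of 0 in the RPE1 lines.

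The fold changes of the RPE1 lines were compared directly, with a two-sided Wald test of their difference over the 12923 genes that pass the limit of 10 in both comparisons and Benjamini-Hochberg adjustment over these genes, a comparison chosen after the values were seen. The difference passed an adjusted p of 0.05 and a size of 0.6 in 28 of 203 members (13.8%), against 9.32% of all genes. The fold change was lower in RPE1 5/3 12/3 than in RPE1* 21/3 in 24 of the 28 (85.7%), against 670 of the 1204 genes that differed in all (55.6%). Of these 24, 8 were among the 21 members of cluster 3, where the median difference (RPE1 5/3 12/3 minus RPE1* 21/3) was -1.22. ZNF91 differed by -1.97 ± 0.43 (adjusted p = 0.000201), from -1.33 in the one to 0.64 ± 0.33 in the other line. ZNF528 differed by -5.03 ± 0.78, ZNF320 by -3.49 ± 0.67 and ZNF331 by -3.01 ± 0.72. The 4 members with a higher value in RPE1 5/3 12/3 were ZNF581, ZNF585B (difference 1.85 ± 0.41), ZNF568 (2.71 ± 0.49) and ZNF829 (3.45 ± 0.59). At a mean of 50 or more in both comparisons 15 of 160 members differed (9.38%), against 7.75% of all genes, and 13 of these 15 were lower in RPE1 5/3 12/3, against 474 of 871 genes. With at least 100, 9 of 104 members differed (8.65%), against 7.31% of all genes, 8 of them lower, against 402 of 757. The 2 comparisons share no libraries. The standard errors of RPE1* 21/3 end in a ceiling, as a prior leaves, with 150 genes within 0.1% of it. In RPE1 5/3 12/3 only 3 genes lie that near the largest standard error, and the sizes of the fold changes may not be comparable.

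**Figure D5:**
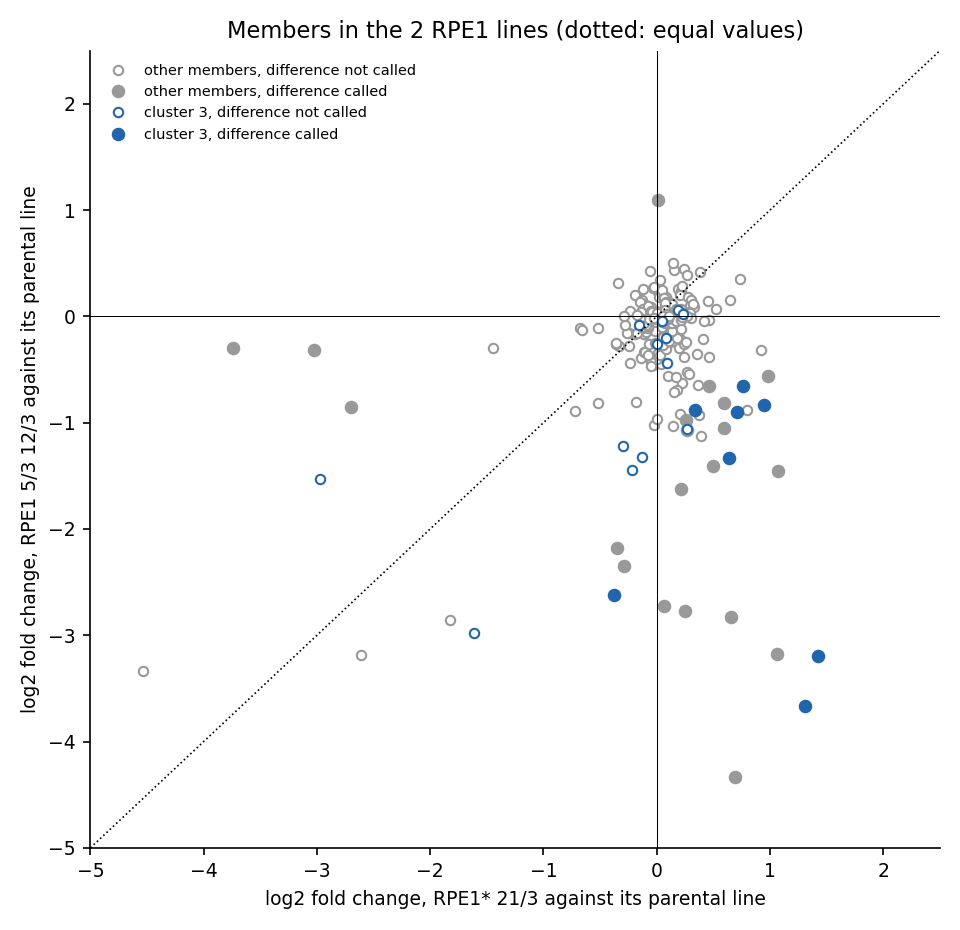
Log2 fold change of the 203 members that pass the limit in both RPE1 comparisons, RPE1 5/3 12/3 on the vertical and RPE1* 21/3 on the horizontal axis, with cluster 3 in blue, members whose difference passed the test filled and a dotted line of equal values. The 8 blue filled points lie below the dotted line.

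Neighbours that point away from each other were examined next. Of the members with starts within 1000 bases of each other on opposite strands, ZNF829 and ZNF568 start 25 bases apart, and both fell in RPE1* 21/3 while neither was called in RPE1 5/3 12/3 (-0.30 and -0.32). ZNF790 and ZNF345, whose annotated spans overlap by 426 bases at their starts, both fell in RPE1 5/3 12/3, to -3.18 and -1.45, and stood at 1.06 and 1.07 in RPE1* 21/3, not called. ZNF585B and ZNF383 have spans that overlap by 227 bases and did not move together, ZNF383 being at -0.35, 0.21, 0.45 and 0.24 in the 4 lines. The spans of ZNF529 and ZNF382 overlap by 459 bases, and these genes were not called in either RPE1 line. The sources name no strand setting for the counting, and reads from exons that a pair may share cannot be told apart.

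Sequence features of members that were lower in RPE1 5/3 12/3 were set beside those of members not called. The median number of fingers was 12 in both, and 38 of 41 translated members that were lower had the KRAB pattern (92.7%), against 131 of 160 of those not called (81.9%). Of the members with the KRAB pattern 22.5% were lower, and of the 33 without it 3 (9.09%), the latter having a median mean of 281 against 108. Members without the pattern may still carry the domain. The median promoter CpG was 17 in members that were lower and 22 in members not called. Outside cluster 3 these medians were 19 and 22, and within cluster 3 they were 10 and 10. The rank correlation of the fold change with promoter CpG over the members lay between -0.22 and 0.11 in the 4 lines. These values describe genes that share a table and often a sequence, and carry no p-value.

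Of other members known for a function, ZNF473, which takes part in histone pre-mRNA processing, was at -0.52 ± 0.21, 0.06 ± 0.13, 0.19 ± 0.20 and 0.02 ± 0.30 in the 4 lines and was not called. ZNF350 (ZBRK1), a partner of BRCA1, was at -0.61 ± 0.36, -0.16 ± 0.17, 0.11 ± 0.25 and 0.13 ± 0.30, and ZNF304, known as a repressor in colorectal cancer cells, at 0.18 ± 0.21, 0.04 ± 0.13, -0.09 ± 0.19 and -0.07 ± 0.21. Among the genes with high levels, ZNF317 was at -0.55 ± 0.21 (adjusted p = 0.0375, below the limit on the fold change) in HCT116 5/4, ZNF358 at -0.78 ± 0.25 (adjusted p = 0.0105), and ZNF561 and ZNF507 at -0.38 ± 0.20 and -0.23 ± 0.24. The genes with the largest median size over the lines in the clusters not named so far were ZNF44 in cluster 2 (0.30, 0.08, 0.42 and 0.39), ZNF599 in cluster 4 (-0.79, -0.13, -0.36 and 0.03), ZNF230 in cluster 6 (0.57, -0.06, 0.50 and 0.14) and ZNF551 in cluster 8 (-0.32, 0.18, -0.28 and -0.34), none of them called.

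The chromatin partners of KRAB proteins were examined in the same tables. TRIM28, with means of 6002 to 16131 in the 4 tables, was at -0.32 ± 0.23, 0.17 ± 0.13, 0.16 ± 0.22 and -0.06 ± 0.29 in the 4 lines, and not called. Of a list of 25 genes for TRIM28, SETDB1, HP1, HUSH and DNA methylation proteins, 2 were lower in HCT116 5/4 (8%, against 9.83% of all genes), EHMT2, an H3K9 methyltransferase (-0.80 ± 0.24, adjusted p = 0.0053), and DNMT3B, a DNA methyltransferase (-0.64 ± 0.21, adjusted p = 0.016). In RPE1 5/3 12/3 2 were lower as well (8%, against 8.47% of all genes), DNMT3A (-1.03 ± 0.19, adjusted p = 8.34e-07, mean 409) and DNMT3B (-0.95 ± 0.31, adjusted p = 0.0128, mean 69.8). In the authors' DESeq2 fits none was called in the other 2 lines, where 1 gene each had an unadjusted p under 0.05, and the medians of the list were -0.09, -0.01, 0.07 and -0.06.

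The labelled cell types were checked against markers. Of 7 colorectal epithelial markers, EPCAM, CDH1, KRT19 and CDX2 had means of 337 to 19183 in the HCT116 tables and were not listed or below 10 in the RPE1 tables, KRT8 and KRT18 were at 12481 to 63210 in the 4 tables, and CDX1 was not listed in any. Of 8 markers for RPE1, VIM, FN1, CDH2, MITF and COL1A1 had means of 1124 to 373337 in the RPE1 tables, and each was higher there than in the HCT116 tables, while COL1A2 was at 4.39 and 8.78. RPE65 and RLBP1, which define retinal pigment epithelium, were at 10.4 and 32.4 in RPE1 5/3 12/3 and 4.58 and 4.77 in RPE1* 21/3, and RPE65 was at 287 and 194 in the HCT116 tables, so that the defining markers are nearly absent from RPE1.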

How the data were processed

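Messenger RNA of 24 libraries was sequenced, and 4 comparisons of an aneuploid line (3 libraries) with its parental line (3 libraries) were analysed. Per the labels and the study's methods the authors trimmed reads with cutadapt, mapped them to hg19 with TopHat 2.0.10 at 1 location per read, counted exons per RefSeq gene with featureCounts 1.4.3, with no strand setting named, and fitted DESeq2 (version not given in the sources used here). The deposited signal is the mean count over the 6 libraries of a comparison after division by size factors. The deposited log2 fold change and its standard error, the score (Wald statistic), and the p-value with its Benjamini-Hochberg adjustment are those of the authors' DESeq2 fit. No values of single libraries were analysed, so that depth per library is unknown and replicates could not be compared.

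From these columns, calls (a mean of 10 or more, a log2 fold change beyond 0.6 in either direction and an adjusted p under 0.05), counts, medians and the Wald test of the RPE1 difference were computed in Python 3.11.15 with pandas 2.3.3 and scipy 1.17.1, after a test on simulated data. Of 482 ZNF names 480 were placed with a GRCh37 annotation, 20 by an older symbol. Fingers and KRAB patterns were read from translated canonical GENCODE transcripts, of which 485 of 491 gave an open frame and the rest were left out, because RefSeq proteins were not used here. The KRAB pattern was loosened after proteins, not expression, were seen. Promoter sequences are from RefSeq.

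Members and lists were chosen with earlier results of these data known. Named are, per line, all called members where at most 10 were called, otherwise the 6 largest rises and falls at a mean of at least 50, members called in 3 or more lines or in 2 at a mean of at least 50, the member of largest absolute median per cluster, the 3 highest means, members just inside or outside the limit, called chromatin partners with TRIM28, and ZNF91, ZNF93, ZNF274, ZNF331, ZNF350, ZNF473, ZNF304, ZNF146, ZNF154, ZNF671, ZNF677 and ZNF382. All other members, such as ZNF585A, ZNF681, ZNF737, ZNF439, ZNF506 and the pairs of adjacent genes, were named after their values were seen. Alternatives changed the limits, the adjustment, the centring, the prior and the gap between clusters.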

Additional observations from a re-analysis of the deposited data

Results flagged for a closer look

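The fold changes of 28 members differed between the RPE1 lines, by a two-sided Wald test of the difference of the log2 fold changes (RPE1 5/3 12/3 minus RPE1* 21/3) with Benjamini-Hochberg adjustment over 12923 genes, a comparison chosen after the data were seen. In cluster 1 the difference was -1.83 for ZNF426 and -1.55 for ZNF699. In cluster 2 the difference was -2.79 for ZNF709 and -1.91 for ZNF491. In cluster 3 the difference was -4.97 for ZNF681, -4.62 for ZNF737, -2.24 for ZNF43, -1.97 for ZNF91, -1.79 for ZNF493, -1.60 for ZNF675, -1.41 for ZNF738 and -1.22 for ZNF714. In cluster 5 the difference was -4.24 for ZNF790 and -2.52 for ZNF345. In cluster 6 the difference was -2.06 for ZNF283 and -1.12 for ZNF229. In cluster 7 the difference was -5.03 for ZNF528, -3.49 for ZNF320, -3.01 for ZNF331, -1.64 for ZNF468 and -1.34 for ZNF701. In cluster 8 the difference was -1.83 for ZNF470, -1.41 for ZNF772 and -1.24 for ZNF497. Positive differences were 1.08 for ZNF581, 1.85 for ZNF585B, 2.71 for ZNF568 and 3.45 for ZNF829. ZNF738 and ZNF493 were called in neither line, and ZNF699 was called in RPE1* 21/3 only. Several of the largest differences were at low means, which in RPE1 5/3 12/3 were 12.9 for ZNF681, 17.4 for ZNF528, 21.2 for ZNF790 and 33.4 for ZNF737. ZNF43 had a mean of 10.5 in RPE1* 21/3. Their sizes are therefore uncertain, and at a mean of 50 or more in both comparisons 15 of 160 members differed.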

How the results depend on the processing

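Of 265 counts and medians computed under an alternative, 253 stayed within 1.5 times (counts) or within the median standard error of the genes (medians). That standard error was larger than most of the medians, so that a median near 0 could change sign within it. Single named genes were run only under the changed centring, adjustment and prior, not under changed limits. All 384 of these values stayed called or not called as before, and the called ones kept their direction. Undoing the prior kept the deposited p-values, and the centring shift was largest in RPE1 5/3 12/3, at -0.026. These runs could therefore change few calls. With an absolute log2 fold change above 1, 14 members were called in HCT116 5/4 and 0 in HCT116* 8/3 c7, and of the chromatin partners 0 in HCT116 5/4 and 1 in RPE1 5/3 12/3. Shares of all genes at that limit were not computed. At a mean of at least 50 the counts were 0 in HCT116* 8/3 c7, 29 in RPE1 5/3 12/3 (28 lower) and 4 in RPE1* 21/3, the median of cluster 5 in HCT116 5/4 was -0.86, and 15 members differed between the RPE1 lines, or 9 at a mean of at least 100. With clusters ended by gaps of over 2 Mb the median of cluster 1 in HCT116 5/4 was 0.028 and that of cluster 4 in RPE1 5/3 12/3 was -0.26, since the clusters then hold other genes. The alternatives for the RPE1 difference and the chromatin partners were chosen after seeing the data. The calls of members at low levels thus depend on the limit on the mean. No paired analysis was possible because the tables hold fitted comparisons and no values of single libraries, and leaving out each replicate was not run for the same reason.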

Other observations

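In the 4 lines, 8, 9, 9 and 14 members were listed below the limit of 10, and the share of all such genes that were called was not computed. Some of these members passed the thresholds on the fold change and the adjusted p-value of the authors' DESeq2 fit. All that did were lower, which cannot be set against a background. They were ZNF846 in HCT116 5/4 (-3.99 ± 0.75 (SE), mean 8.88), ZNF781 (-3.71 ± 0.74, mean 8.14), ZNF135 (-3.88 ± 0.73, mean 9.33) and ZNF582 (-2.07 ± 0.73, mean 4.94) in RPE1 5/3 12/3, and ZNF69 (-2.69 ± 0.55, mean 7.49) and ZNF135 (-2.36 ± 0.56, mean 5.68) in RPE1* 21/3. Across members, fold changes of the lines were weakly related, with Pearson's r between -0.10 and 0.27 over 151 to 203 genes, given as a description.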
